A study of Mus musculus with 24 samples.

Results

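The genes described are 9 transcription factor genes of the primitive streak and mesoderm: Snai1, Eomes, Tbx6, Gsc, Mixl1, Evx1, Cdx1, Mesp1 and Foxc2. They are 9 of the 21887 protein-coding genes listed by RefSeq for the mouse assembly GRCm38.p6, whose coordinates are those of mm10. The 9 were chosen by the H3K4me1 and H3K4me2 peaks that earlier work on the same lists had found at them, so their H3K4me1 and H3K4me2 values are given as a description with no test. Each was examined for peaks over its span, within 2500 bp of either gene end and within 10 kb of either gene end.

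The libraries were CUT&RUN profiles, in which a nuclease tethered by an antibody cuts out the chromatin around its target for sequencing. Cells were mouse embryonic stem (ES) cells of C57BL/6 background, grown with LIF on Matrigel, and day 6 embryoid bodies (EB), the aggregates in which ES cells differentiate. Both stages were profiled in wild type and in cells labelled Prdm16 KO, a knockout of the gene of the zinc finger protein PRDM16. The antibodies were to PRDM16, H3K4me1 and H3K4me2. The 12 groups held 2 libraries each, and the 16 H3K4me1 and H3K4me2 libraries carry the results. The labels give neither the deleted part of Prdm16 nor the number of KO clones nor whether a group's 2 libraries are separate cultures or technical repeats. An embryoid body holds many cell types, so fewer cells with a mark and less of the mark per cell cannot be told apart.

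In the gastrulating embryo, epiblast cells move through the primitive streak and become mesoderm and definitive endoderm. Nodal and Wnt signals switch on T-box, homeobox and bHLH factors there, and most of these genes are little transcribed in undifferentiated ES cells. Many developmental genes carry H3K4 methylation in ES cells before they are transcribed. H3K4me2 is found at promoters and enhancers, and H3K4me1 mainly at enhancers and at the flanks of promoters.

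H3K4me2 lists held 13818 to 32874 peaks and H3K4me1 lists 5990 to 15435. In ES cells the KO lists for H3K4me2 were the longer ones, with 29138 and 32874 peaks against 22615 and 24600 in wild type. The longest, KO replicate 2, carries another library series number in its title than the other ES libraries for H3K4me2. In EB the KO lists for H3K4me1 were the shorter ones, with 5990 and 8943 peaks against 13260 and 14082. Read totals are not known here, so list length and depth cannot be separated. Of 10 ES cell marker genes, 2 had H3K4me2 peaks near the gene (2500 bp or less from an end) in both wild-type ES libraries, and Nanog, Pou5f1 and Sox2 had none in either. In wild-type EB, 3 of the 10 had such peaks in both libraries, and Nanog and Pou5f1 had one in at least 1 library. Of 5 neuroectoderm markers, 3 had one in both wild-type ES libraries and 1 in both wild-type EB libraries. Of 5 endoderm markers, 4 and 1 did. These markers thus did not follow the stage labels. Of 5 fibroblast or feeder markers, 4 had one in both libraries of each genotype at both stages. The lists therefore do not check the labelled cell type or stage, and absence of a peak was not read as absence of the mark. Whether such cells take part in the results was not tested.

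The promoters of Snai1, Eomes and Gsc are shown because H3K4me2 peaks lay over the start of transcription of all 3 in each wild-type ES library and in no KO ES library. Each run is the 250 bases before the start, 5′ to 3′ on the gene's strand, from the RefSeq table of GRCm38.p6, with CG dinucleotides in capitals. The Snai1 run is chr2:167537945-167538194 on the plus strand, the Eomes run is chr9:118477939-118478188 on the plus strand, and the Gsc run is chr12:104473237-104473486 on the minus strand.
Snai1: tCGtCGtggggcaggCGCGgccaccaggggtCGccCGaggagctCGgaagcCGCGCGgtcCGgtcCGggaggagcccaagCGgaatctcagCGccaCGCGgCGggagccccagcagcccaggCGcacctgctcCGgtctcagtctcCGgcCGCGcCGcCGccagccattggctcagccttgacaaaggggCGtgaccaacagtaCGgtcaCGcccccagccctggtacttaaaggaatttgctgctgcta
Eomes: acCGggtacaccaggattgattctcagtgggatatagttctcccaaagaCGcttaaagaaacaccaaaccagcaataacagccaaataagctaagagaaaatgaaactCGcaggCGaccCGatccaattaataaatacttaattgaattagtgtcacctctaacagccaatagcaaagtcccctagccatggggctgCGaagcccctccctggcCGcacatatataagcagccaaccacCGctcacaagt
Gsc: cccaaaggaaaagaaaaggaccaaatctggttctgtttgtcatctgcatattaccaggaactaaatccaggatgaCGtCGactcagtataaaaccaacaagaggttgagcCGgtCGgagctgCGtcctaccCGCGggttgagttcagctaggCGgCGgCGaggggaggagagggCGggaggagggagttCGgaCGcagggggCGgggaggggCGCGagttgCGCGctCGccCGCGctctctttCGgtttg
The promoter of Snai1 holds 27 CG dinucleotides, more than 89.7% of the 17492 promoters of the same length, whose median is 10. That of Gsc holds 22, more than 81.2% of promoters, and that of Eomes holds 8, more than 44.1%. The 3 genes therefore do not share a CG-rich promoter. Among the other members in the table, Evx1 had 10, Tbx6 6 and Mesp1 2, and 6 of the 9 genes matched an entry in all.

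Short motifs were searched on both strands of these runs, and matches of different motifs were counted even where they share bases. The TATA box TATAAA was in the promoters of Gsc and Tbx6, and in 12.4% of all promoters. The CCAAT box was in those of Snai1, with 1 match, and Eomes, with 2, and in 36.5% of all. GGGCGG, the GC box, was found in Gsc with 2 matches, and in 42.7% of all. CANNTG, the E-box bound by SNAI and bHLH factors, reads the same on both strands. It had 1 match each in Snai1 and Gsc and 2 each in Evx1 and Mesp1, and was in 62.7% of all. GGTGTG, a core of the T-box factor site, was in Evx1 with 1 match and in 15.7% of all. CTTTGA, the TCF/LEF core, was in Mesp1 with 2 matches and in 13.1% of all. CAGAC, the SMAD core, had 1 match each in Evx1, Mesp1 and Tbx6 and was in 41.0% of all. AATNNACA, a FOXH1 site, was in none of the 6 and in 9.75% of all. No motif was shared by Snai1, Eomes and Gsc, which says only that these letters are not in these windows of all 3.

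A gene is called marked in a library when a peak lay within 2500 bp of either of its ends. It is called wild-type-only for a mark and stage when both wild-type libraries but no KO library marked it, and KO-only in the reverse case. In ES cells, 3 of the 9 genes were wild-type-only for H3K4me2, namely Snai1, Eomes and Gsc, and 0 were KO-only. Of all protein-coding genes, 1.22% were wild-type-only and 1.91% KO-only. Snai1, Eomes, Gsc, Mixl1 and Mesp1, 5 of the 9, were marked in both wild-type libraries, and 2 of the 9, Mixl1 and Mesp1, in both KO libraries. These counts chose the genes, so nothing is read from their distance to the background. By library, wild type marked 8 and 5 of the 9 genes and KO 2 and 2, while wild type marked 56.1% and 54.2% of all genes and KO 54.7% and 58.1%.

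The result depends on the window at Snai1 and Eomes. Over the gene span alone, Snai1, Eomes and Gsc were again the wild-type-only genes (1.11% of all genes) and none was KO-only (2.01%). Within 10 kb the 2 wild-type-only genes were Gsc and Evx1 (0.909% of all genes), because KO libraries had H3K4me2 peaks in the flanks of Snai1 and Eomes, and none was KO-only (2.25%). With the lower-scoring 50% of each list left out, Snai1 was no longer called, and Eomes and Gsc were. Without wild-type replicate 2 the criterion rested on replicate 1 alone, and 6 genes met it: the 3 and Evx1, Foxc2 and Cdx1.

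The length of DNA covered by peaks within 2500 bp of the gene ends comes from the same peaks as the calls. It describes them in another unit and adds no support to them, and these peaks also chose the genes. KO libraries had a lower mean than wild type for H3K4me2 in ES cells at 7 of the 9 genes, a higher mean at 1, Mixl1, and an equal one at 1, Tbx6, which had no peak. The median difference over the 9 genes was -2.39 kb. Of the 13910 genes with an H3K4me2 peak in any ES library, 72.2% had a higher mean in KO, and their median difference was 0.265 kb. In EB, 3 of the 9 genes had a lower and 3 a higher H3K4me2 mean in KO, with a median difference of 0 kb, where 80.2% of the 13619 genes with a peak had a lower one. With 2 libraries a group, a two-sided exact permutation test could not give a p below 0.333.

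**Figure D1:**
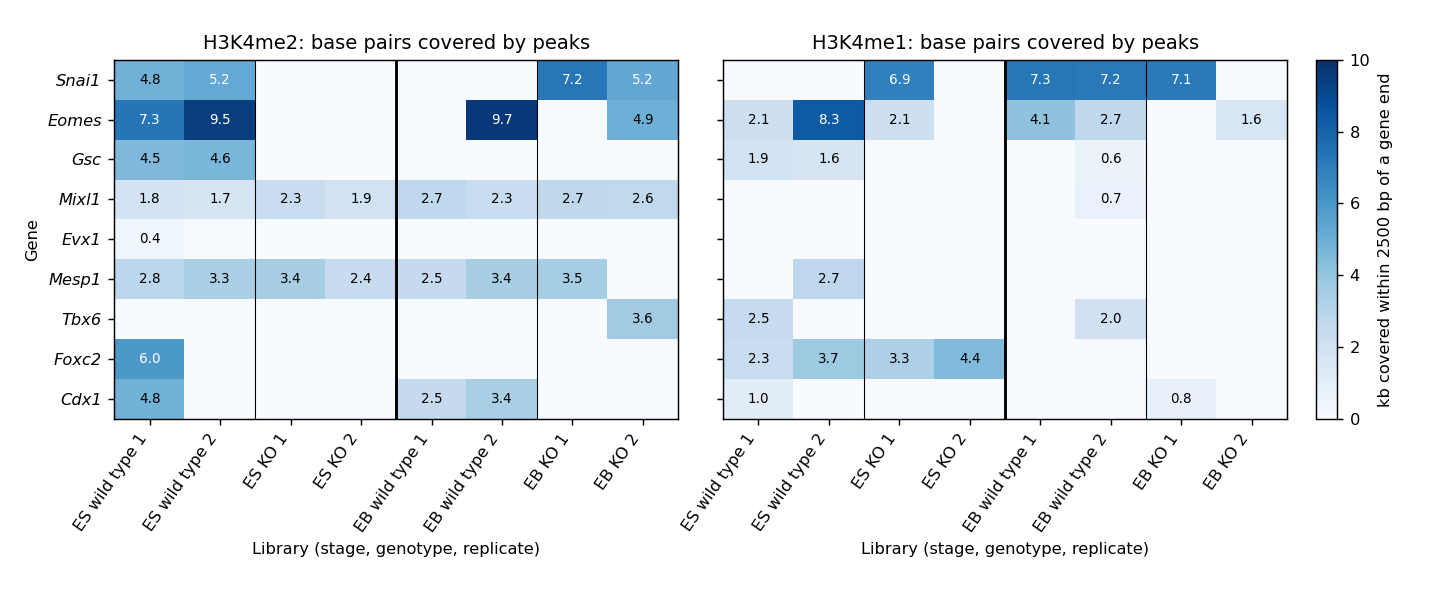
Length of DNA covered by H3K4me2 peaks (left) and H3K4me1 peaks (right) within 2500 bp of either gene end, in kb, for the 9 genes (rows) in each of the 8 libraries of a mark (columns). Empty cells are 0. Snai1, Eomes and Gsc are filled in both wild-type ES columns for H3K4me2 and empty in both KO ES columns, and Mixl1 is filled in all 8.

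Snai1, on chromosome 2 at 167538195 to 167542814, encodes a zinc finger repressor of E-cadherin that drives epithelial cells of the streak into mesenchyme. No other protein-coding gene lies within 10 kb. For H3K4me2 in ES cells, its windows were covered over 4.83 and 5.23 kb in wild type (mean 5.03 ± 0.284 kb, SD, n = 2) and 0 and 0 kb in KO. A peak spanned 86.6% of the gene in wild-type replicate 1 and 99.1% in replicate 2. These peaks were of low rank, at or above 9.5% and 34.7% of the scores in their lists. The score is the authors' own value for each peak and is used only to rank peaks within a list.

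Upstream of Snai1 the order was different. A separate H3K4me2 region lay 5821 bp or more before the gene, at 167529976 to 167532374, with a peak in 1 wild-type and both KO ES libraries. H3K4me1 had a peak over the same place in all 4 ES libraries, at score percentiles of 80.4% and 95.1% (wild type) and 96.3% and 83.8% (KO). So the missing H3K4me2 peaks in KO ES cells were those over the gene, not those upstream.

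In EB the H3K4me2 peaks over Snai1 were in the other genotype. Coverage was 0 and 0 kb in wild type, where the nearest peaks were 42213 and 31349 bp away, and 7.23 and 5.25 kb in KO (mean 6.24 ± 1.4 kb, SD, n = 2). The groups did not overlap at either stage, and they stood in opposite orders. The share of all genes that did so is not given here. The EB peaks were among the weakest of their lists, at the 4.6% and 1.7% score percentiles, with scores of 53.98 and 51.27 against a minimum of about 50. Snai1 was 1 of the 9 genes KO-only in EB, where 2.05% of all genes were. It was also so over the gene span (1.71% of all genes) and within 10 kb (1.96%), but not when lists were cut to equal length or to their higher-scoring 50%.

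H3K4me1 over the Snai1 gene was present in both wild-type EB libraries, with 7.26 and 7.18 kb covered, and in 1 KO EB library, with 7.12 kb. In ES cells it was present in 1 KO library alone, with 6.91 kb. The genotypes shared the value 0 in ES cells. In EB both wild-type libraries stood above both KO libraries, 1 of which differed from them by less than 1 kb and the other of which had no peak. A lower mean in KO was seen at 73.8% of the genes with an H3K4me1 peak in any EB library. The peaks ran from near the start to 7443 to 7496 bp past it in EB wild type, beyond the end of the gene, and stood at the 10.7% and 13.8% score percentiles.

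Eomes, on chromosome 9 at 118478186 to 118486132, encodes the T-box factor eomesodermin, which acts in endoderm and early cardiac mesoderm. It too has no protein-coding neighbour within 10 kb. Its H3K4me2 coverage in ES cells was the greatest of the 9 genes, with 7.31 and 9.46 kb in wild type (mean 8.38 ± 1.52 kb, SD, n = 2) and 0 and 0 kb in KO. Both wild-type libraries had 2 peaks there. One lay over the promoter and front of the gene, from 118475938 to 118482972 in replicate 1, and the other over its far end, from 118486070 to 118490129. The far-end peaks ranked higher, at the 86.9% and 57.1% score percentiles, than the promoter peaks, at 49.0% and 25.5%.

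Both flanks of Eomes had H3K4me2 peaks in KO ES cells. A region 7028 bp or more before the gene had a peak in all 8 H3K4me2 libraries. Another, at 118495438 to 118499466 and 9306 bp or more past the gene, had one in both KO and 1 of the wild-type ES libraries and in no EB library. In KO its peaks reached the 68.1% and 67.9% score percentiles, against 45.6% in the wild-type library that had it. H3K4me1 had a peak at that downstream place in all 4 ES libraries and in no EB library. As at Snai1, the wild-type-only H3K4me2 peaks were those over the gene.

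In EB the H3K4me2 coverage of Eomes was 0 and 9.65 kb in wild type and 0 and 4.93 kb in KO, so the genotypes overlapped. The wild-type library with peaks, replicate 2, carries another library series number in its title than most and had the longest H3K4me2 list in EB. H3K4me1 within 2500 bp was present in both wild-type libraries of each stage and in 1 KO library of each. In ES cells it covered 2.14 and 8.33 kb (wild type) and 2.14 and 0 kb (KO). In EB it covered 4.07 and 2.7 kb (wild type) and 0 and 1.59 kb (KO). In EB each wild-type library stood above each KO library, and the share of all genes that did so is not given here. Of the 6354 genes with an H3K4me1 peak in any EB library, 73.8% had a lower mean in KO. The H3K4me1 peaks lay mainly at the far end of the gene. In EB they stood at the 88.3% and 78.6% score percentiles in wild type and at 6.2% in the KO library that had them.

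Tbx6, on chromosome 7 at 126781483 to 126785548, encodes a T-box factor of paraxial mesoderm that keeps precursors from a neural fate. It had no H3K4me2 peak within 10 kb in any ES library or wild-type EB library. In EB KO replicate 2 a peak covered 3.62 kb of its windows, from 126776829 to 126782607. That peak takes in the whole of Ypel3, whose end lies 973 bp before Tbx6, and cannot be assigned to either gene. H3K4me1 covered 2.49 kb in ES wild-type replicate 1 and 1.97 kb in EB wild-type replicate 2, and none in the other 6 libraries. No call was made for Tbx6 in either mark.

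**Figure D2:**
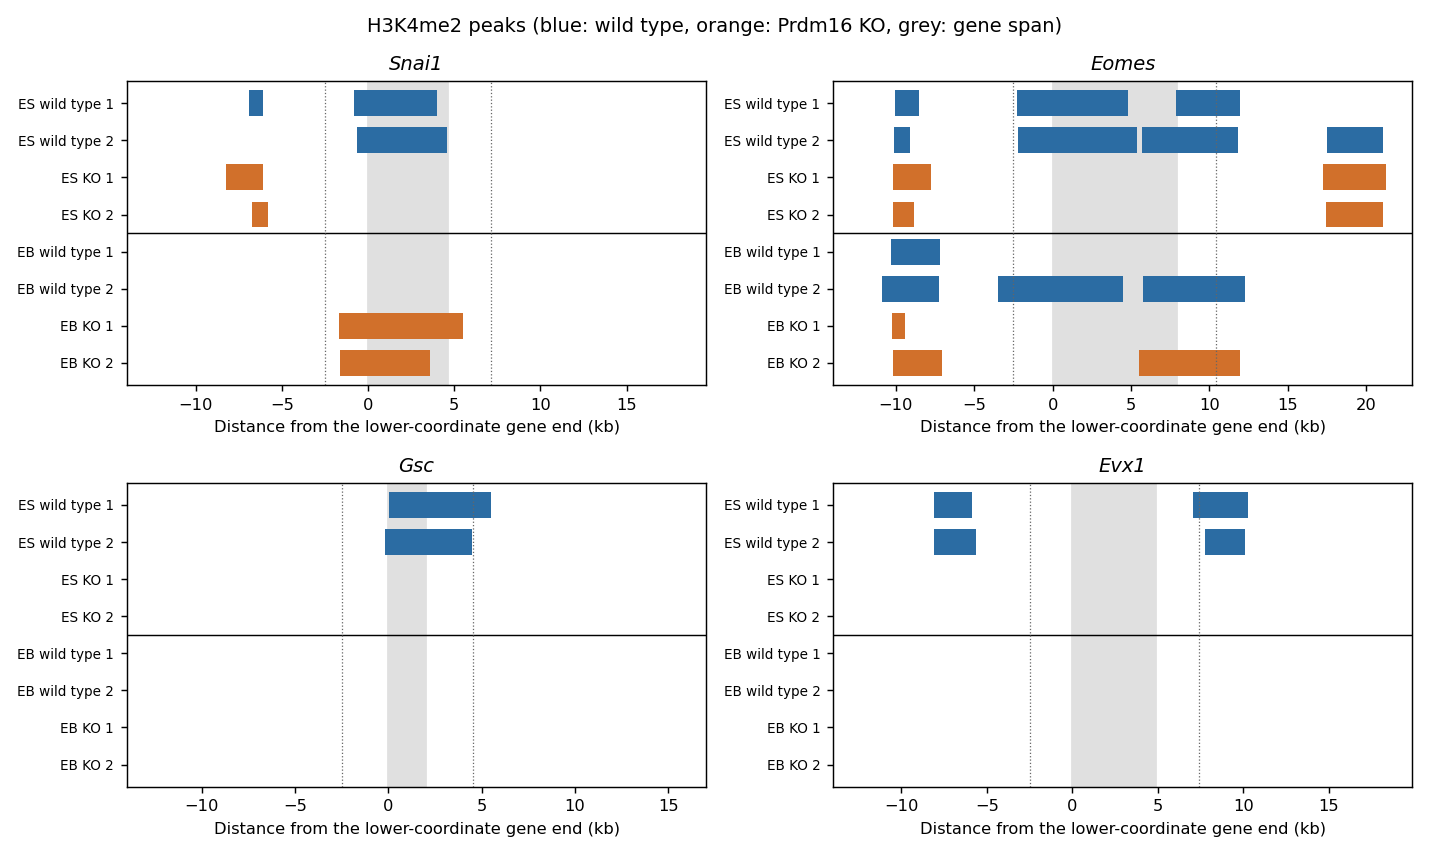
H3K4me2 peaks at Snai1, Eomes, Gsc and Evx1 in the 8 libraries, drawn to scale against the distance in kb from the lower-coordinate end of the gene, with the gene span in grey and dotted lines 2500 bp outside it. In ES cells the bars over Snai1, Eomes and Gsc are in the wild-type lanes and in no KO lane, while flanking bars at Snai1 and Eomes are in both KO libraries.

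Gsc, on chromosome 12 at 104471209 to 104473236, encodes the homeobox factor goosecoid of the anterior streak and organizer. Its H3K4me2 coverage in ES cells was 4.5 and 4.64 kb in wild type (mean 4.57 ± 0.0976 kb, SD, n = 2) and 0 and 0 kb in KO. The peaks took in 98.7% and 100% of the gene and stood at the 61.0% and 74.9% score percentiles, in the upper part of their lists. In KO ES cells the nearest peaks were 11028 and 11419 bp away, so nothing was called at either flank within 10 kb. Gsc had no H3K4me2 peak in the 4 EB libraries, where the nearest lay 275179 to 276916 bp away.

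Gsc was also the 1 member that was wild-type-only for H3K4me1 in ES cells, where 1.79% of all genes were. H3K4me1 covered 1.86 and 1.65 kb of its windows in wild type and 0 and 0 kb in KO. These peaks came to 640 and 848 bp from the higher-coordinate end of the gene, where transcription starts, and overlapped the upstream part of the H3K4me2 peaks. In KO replicate 2 the nearest H3K4me1 peak was 9539 bp away, a different place, so that within 10 kb no member was wild-type-only for H3K4me1 in ES cells (2.32% of all genes). Over the gene span the 1 such member was Eomes (1.75%), since these peaks lie outside the span of Gsc. With the higher-scoring 50% of each list Gsc was no longer called, and the 1 member was Foxc2. Without 1 library in turn the count was 1 to 3. In EB, H3K4me1 covered 0.625 kb in wild-type replicate 2, at the 4.1% score percentile, and none in the other 3 libraries.

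Mixl1, on chromosome 1 at 180693043 to 180697034, encodes a homeobox factor of the streak that acts in mesendoderm. It was the 1 member with an H3K4me2 peak in all 8 libraries, as had 37.4% of all genes. In ES cells the peak covered 1.83 and 1.67 kb (wild type) and 2.31 and 1.95 kb (KO). In EB it covered 2.68 and 2.34 kb (wild type) and 2.7 and 2.62 kb (KO). KO exceeded wild type in ES cells by less than 1 kb. The KO mean was also higher at 72.2% of all genes with an H3K4me2 peak in any ES library. In EB the genotypes overlapped. The peaks were narrow and held to the higher-coordinate end, between 180695564 and 180698720. They stood at the 73.7% to 87.9% score percentiles in ES cells and at 35.6% to 77.2% in EB. Both genotypes thus had the H3K4me2 peak of Mixl1 at both stages. H3K4me1 covered 0.667 kb in EB wild-type replicate 2, with no other peak within 2500 bp.

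Evx1, on chromosome 6 at 52313498 to 52318389, encodes an even-skipped homeobox factor of the posterior streak and lies beside the Hoxa cluster. No H3K4me peak of either mark lay over the gene in any library. In wild-type ES cells a pair of H3K4me2 regions flanked it, at 52305410 to 52307879 and at 52320531 to 52323766. Each held a peak of the 2 wild-type ES libraries and of no other H3K4me2 library. The second lay 2142 bp from the gene in replicate 1, just inside the 2500 bp window, and 2864 bp away in replicate 2, just outside it. With 10 kb the gene was therefore wild-type-only, with 5.47 and 4.79 kb covered in wild type and 0 and 0 kb in KO. The Evx1 peaks were weak, with score percentiles of 22.8% and 37.4% in replicate 1 and 2.0% and 11.7% in replicate 2. H3K4me1 had a single peak, at the second region in ES KO replicate 1.

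Cdx1, on chromosome 18 at 61018862 to 61036199, encodes a caudal-type homeobox factor that acts on posterior Hox genes. Its span overlaps the predicted gene Gm52351 at the higher-coordinate end. A peak there gave H3K4me2 coverage of 2.52 and 3.39 kb in wild-type EB (mean 2.96 ± 0.617 kb, SD, n = 2) and 0 and 0 kb in KO EB. Cdx1 was the 1 wild-type-only member for H3K4me2 in EB, where 1.64% of all genes were. It was also so over the gene span (1.80%), and within 10 kb no member was (1.73%), since a peak near Pdgfrb lay within that distance in 1 KO library. In ES cells the same end was covered over 4.79 kb in wild-type replicate 1 and over 0 kb in replicate 2 and both KO libraries. So 3 of 4 wild-type and 0 of 4 KO libraries had it over both stages.

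A further H3K4me2 region, on the lower-coordinate side of Cdx1, was at 61011261 to 61016269. Each ES library of either genotype held a peak there. In EB both wild-type libraries held one, at the 24.5% and 45.0% score percentiles, and neither KO library did. The share of all regions with this pattern is not given here. Of the 13619 genes with an H3K4me2 peak in any EB library, 80.2% had a lower mean in KO. The region takes in an end of Slc6a7, a gene 4446 bp from Cdx1. In KO ES replicate 1 it came to 2593 bp from Cdx1, just outside the 2500 bp window. Its score percentiles in ES cells were 88.5% and 95.3% (wild type) and 67.0% and 61.7% (KO). H3K4me1 within 2500 bp covered 1.04 kb in ES wild-type replicate 1 and 0.777 kb in EB KO replicate 1, and none in the other 6 libraries.

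**Figure D3:**
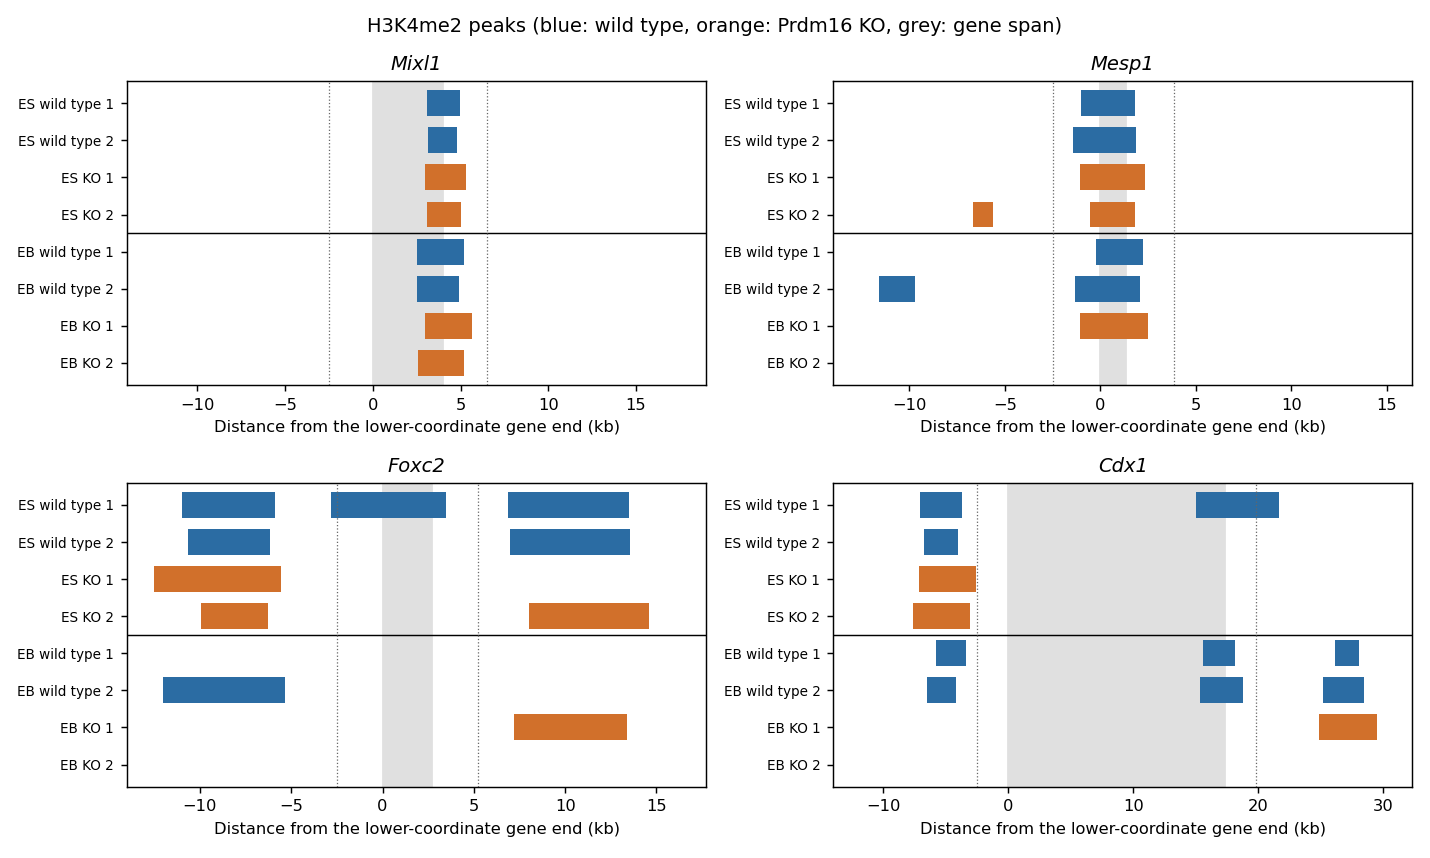
H3K4me2 peaks at Mixl1, Mesp1, Foxc2 and Cdx1 in the 8 libraries, against the distance in kb from the lower-coordinate end of the gene, with the gene span in grey and dotted lines 2500 bp outside it. The Mixl1 bar is in all 8 libraries and the Mesp1 bar in 7, and in EB the bar at the higher-coordinate end of Cdx1 is in the wild-type lanes and in no KO lane.

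Mesp1, on chromosome 7 at 79792241 to 79793590, encodes a bHLH factor of the earliest cardiovascular mesoderm. An H3K4me2 peak covered the whole gene in 7 of 8 libraries. In ES cells it covered 2.81 and 3.33 kb within 2500 bp (wild type) and 3.42 and 2.36 kb (KO), and the genotypes overlapped. In EB it covered 2.5 and 3.43 kb (wild type) and 3.53 and 0 kb (KO), so KO replicate 2 was the library without it. Score percentiles in ES cells were 54.1% and 63.2% (wild type) and 59.0% and 77.8% (KO), and lower in EB, at 15.2% to 29.9% where there was a peak. H3K4me1 was seen in ES wild-type replicate 2 alone, with 2.74 kb. The promoter of Mesp1, with 2 CG dinucleotides, was the poorest in them of the 6 examined, although its transcription start was covered by H3K4me2 in all 4 ES libraries.

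Foxc2, on chromosome 8 at 121116171 to 121118895, encodes a forkhead factor of paraxial mesoderm and lymphatic vessels. H3K4me2 over the gene was seen in ES wild-type replicate 1 alone, with 5.97 kb covered. Upstream, a region including an end of Mthfsd had H3K4me2 in all 4 ES libraries and 1 wild-type EB library. Downstream, a region over the forkhead gene Foxl1 had it in both wild-type ES libraries, 1 KO ES library and 1 KO EB library. H3K4me1 over Foxc2 was present in all 4 ES libraries, with 2.31 and 3.73 kb in wild type and 3.28 and 4.44 kb in KO, and in no EB library. The 2 genotypes overlapped, and the ES and EB libraries did not.

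**Figure D4:**
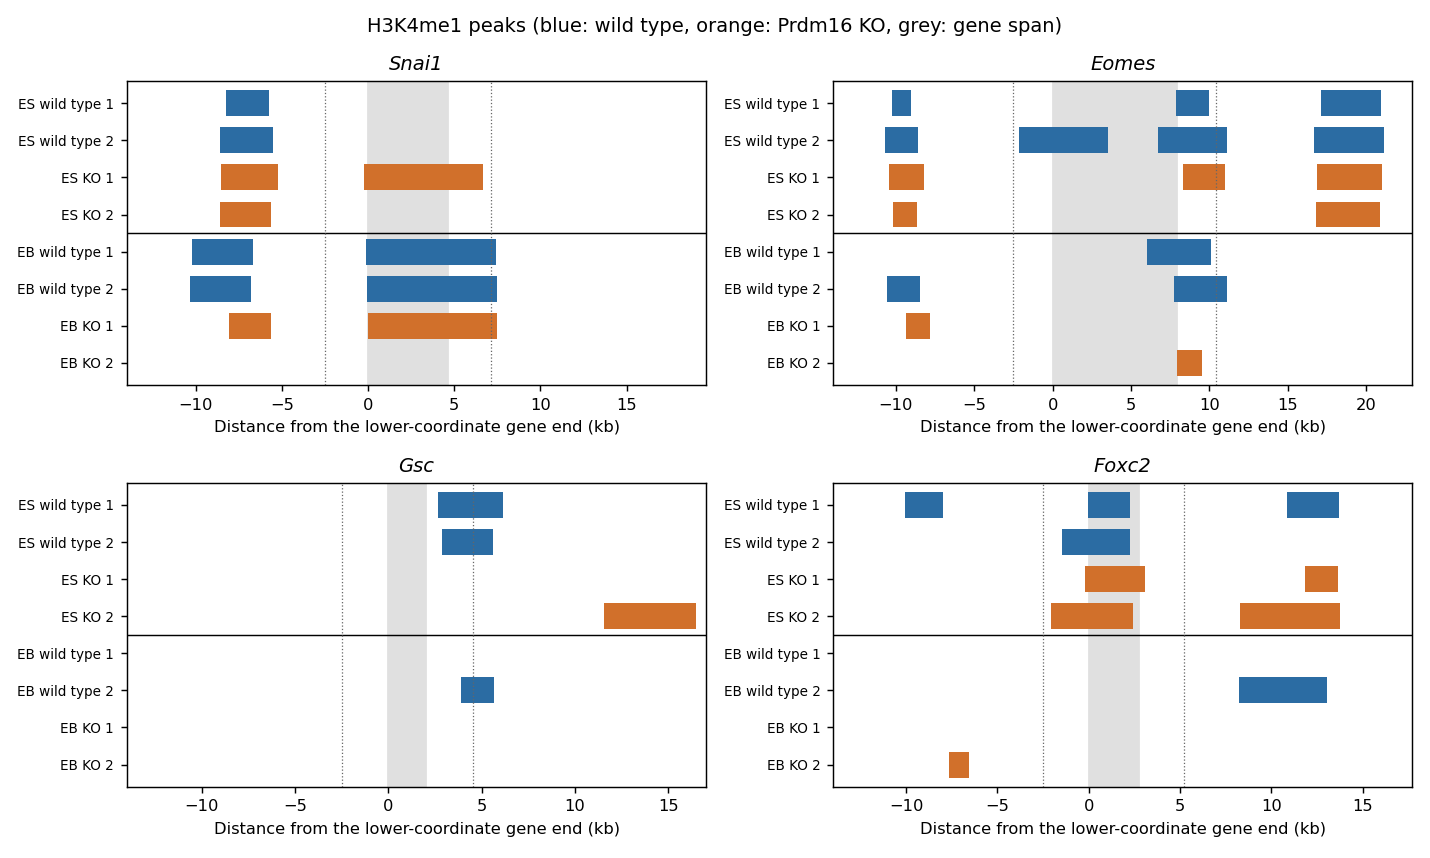
H3K4me1 peaks at Snai1, Eomes, Gsc and Foxc2 in the 8 libraries, against the distance in kb from the lower-coordinate end of the gene, with the gene span in grey and dotted lines 2500 bp outside it. The bar before Snai1 is in all 4 ES libraries, the bar near Gsc in the wild-type ES lanes and no KO lane, and the bar over Foxc2 in all 4 ES and no EB library.

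Between stages in wild type, Snai1 and Gsc were marked by H3K4me2 in both ES and neither EB library, 2 of the 9 genes, where 4.30% of all genes were. Snai1 and Gsc were also so over the span (4.32% of all genes), and within 10 kb Evx1 joined them (4.63%). Leaving out ES wild-type replicate 2 gave 4 genes, with Evx1 and Foxc2 added, and leaving out EB wild-type replicate 2 gave 3, with Eomes added. With the higher-scoring 50% of each list Snai1 was no longer ES-only, and the 3 such genes were Eomes, Gsc and Mesp1. None of the 9 was EB-only within 2500 bp (3.30% of all genes), within 10 kb (2.56%) or over the span (2.77%). For H3K4me1, Foxc2 was the 1 ES-only gene, where 6.68% of all genes were, and Snai1 the 1 EB-only gene, where 3.67% were. Both were so over the span too (7.22% and 4.23% of all genes), and within 10 kb no member was ES-only (9.89%) or EB-only (4.74%). In wild type Snai1 thus carried H3K4me2 peaks over the gene in ES cells and H3K4me1 peaks there in EB. In KO EB it had H3K4me2 peaks in both libraries and H3K4me1 in 1.

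For H3K4me1, no member was KO-only in ES cells within 2500 bp (1.31% of all genes), within 10 kb (2.00%) or over the span (1.54%). In EB none was wild-type-only within 2500 bp (4.14%), within 10 kb (6.16%) or over the span (4.83%), and none KO-only (0.580%, 1.11% and 0.749%). Leaving out 1 library let up to 3 members meet the EB wild-type-only criterion, namely Gsc, Mixl1 and Tbx6 without wild-type replicate 1. By library, H3K4me1 marked 5 and 4 of the 9 genes in ES cells of wild type and 3 and 1 in those of KO, and, of all genes, 23.2% and 20.5% (wild type) against 20.9% and 19.9% (KO). In EB it marked 2 and 5 (wild type) and 2 and 1 (KO), and, of all genes, 17.7% and 16.2% (wild type) against 10.8% and 7.81% (KO).

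The number of H3K4me2 libraries in which a gene was marked ordered the members as Mixl1 with 8 of 8, Mesp1 with 7, Snai1 and Eomes with 4 each, Cdx1 with 3, Gsc with 2, and Evx1, Tbx6 and Foxc2 with 1 each. For H3K4me1 Eomes came first with 6, followed by Snai1 and Foxc2 with 4, Gsc with 3, Tbx6 and Cdx1 with 2, Mixl1 and Mesp1 with 1 and Evx1 with 0. Neighbours that differ by 1 library differ by no more than the libraries of a group did at Eomes, Mesp1 or Foxc2. Within 2500 bp of the gene ends, the highest-ranked H3K4me2 peak was that of Mixl1 in ES wild-type replicate 2 (87.9%). Next came Mixl1 in ES KO replicate 1 and Eomes in ES wild-type replicate 1 (86.9% each). In ES wild-type replicate 2 the top Eomes peak stood at 57.1%. The lowest-ranked peaks were those of Snai1 in KO EB.

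**Figure D5:**
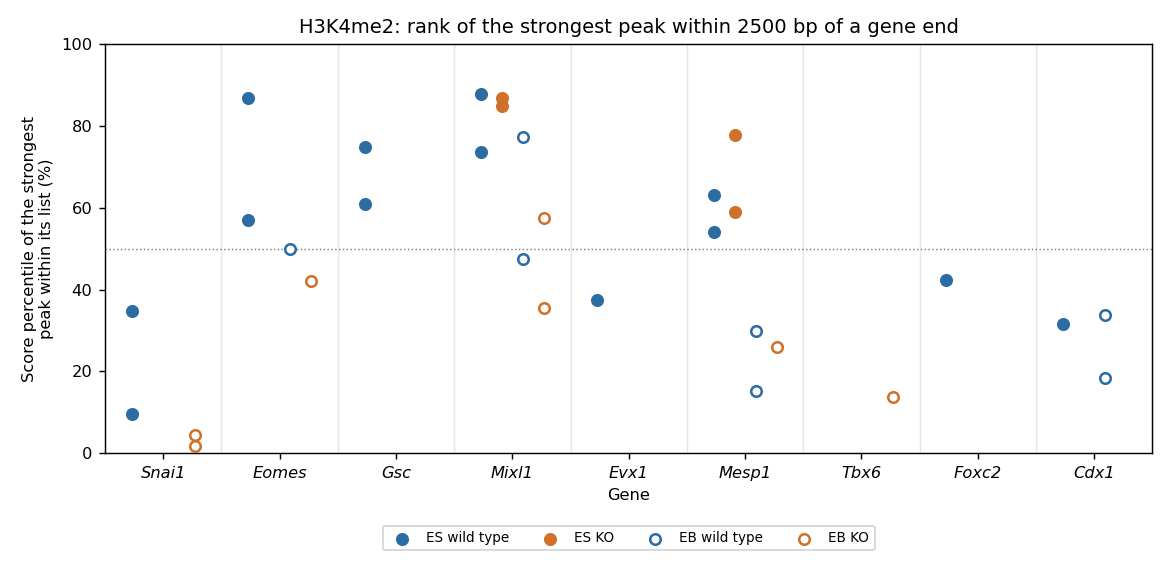
Rank of the strongest H3K4me2 peak at each gene (2500 bp window), as the percentage of peaks in the same list that score no higher, for the 9 genes. Each point is 1 library, filled for ES and open for EB, blue for wild type and orange for KO, and a library without a peak has no point. The Snai1 points in EB KO lie at 4.6% and 1.7%, and the Mixl1 points in ES cells at 73.7% to 87.9%.

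The PRDM16 antibody had no peak over or within 10 kb of any of the 9 genes in its 8 lists, in wild type or in KO. Of all genes, 0.425% to 1.49% had one within 10 kb in a given list, and 5.56% in any of the 8. The nearest PRDM16 peak to a member lay 33221 bp from Mesp1, in KO ES replicate 2. With 0 members in each list there was no difference to test. The PRDM16 lists were short. For ES cells they held 586 and 499 peaks (KO) against 331 and 191 (wild type). For EB they held 173 and 187 (KO) against 146 and 258 (wild type). The KO cells are labelled as knockouts of Prdm16, and loss of the protein was not measured here. Their lists did not stand below those of wild type at either stage. The lists therefore cannot report on PRDM16 binding, and absence of a peak was not read as absence of binding.

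A further 32 genes of the streak and mesoderm were examined in the same way, among them brachyury (T), Mesp2, Nodal and Wnt3. For H3K4me2 in ES cells 0 of the 32 were wild-type-only (1.22% of all genes) and 0 KO-only (1.91%). In EB, 0 were wild-type-only (1.64% of all genes) and 2 KO-only (2.05%). The 2 were the Nodal coreceptor gene Tdgf1, with 4.17 and 4.14 kb covered in KO, and the Wnt target gene Sp5, with 5.39 and 5.98 kb. For H3K4me1 in ES cells the Notch ligand gene Dll1 was wild-type-only (1.79% of all genes), with 2.67 and 3.08 kb in wild type. Bmp4 was KO-only there (1.31% of all genes), with 1.29 and 0.295 kb in KO. For H3K4me1 in EB, 2 were wild-type-only (4.14% of all genes) and 0 KO-only (0.580%). They were the Wnt ligand gene Wnt3a, with 3.32 and 4.03 kb, and the Wnt agonist gene Rspo3, with 1.88 and 1.59 kb. These counts were small, and their distance to the shares of all genes was not tested.

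Genes with the most similar coverage over the 16 libraries were found by Pearson's r, leaving out genes within 100 kb, for each member with a KO call. The libraries share list length and depth, so r is a description. Gsc was closest to Hoxa13 (r = 0.962), Mecom (r = 0.96) and Tmub1 (r = 0.925), and Eomes to Gga2 (r = 0.91), Synpo (r = 0.887) and Fcho1 (r = 0.855). Cdx1 was closest to Cnfn (r = 0.931), Eif4ebp3 (r = 0.898) and Gpr84 (r = 0.891), and Snai1 to Twnk (r = 0.762), Dmwd (r = 0.725) and Parp3 (r = 0.703). No other protein-coding gene was marked in exactly the same libraries as Snai1, Eomes, Gsc or Cdx1, whereas 204 shared the pattern of Mixl1, all 8 H3K4me2 libraries and EB wild-type replicate 2 for H3K4me1.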

How the data were processed

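Each library had 1 list of peaks as deposited by the authors, with a score per peak of unstated unit. The mm10 build and the tools Bowtie2, SAMtools 1.5, bedtools, MACS2, deepTools and HOMER 4.10 are named, with no role or order, per the submitters' processing notes. For control libraries, duplicate handling, depth and scaling, nothing was given in the sources used here. Groups and replicate numbers came from the sample titles.

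Peaks off chromosomes 1 to 19, X and Y were left out, and 1 bp was added to each start, so coordinates are 1-based. Gene ends came from the RefSeq table of GRCm38.p6, and an overlap of 1 bp counted. Exons and UTRs were not resolved. Score percentiles were taken within a list. The window code (Python 3.11.15, numpy 2.4.6, pandas 2.3.3) was tested on simulated data. The members, lists and rules were chosen with earlier results of these data known. Named genes were the 9 members, those of 32 further genes with a KO call, and for each member with a KO call the 3 genes of highest r. Alternatives were window size, gene span, transcription start, score, list length, covered length, each library left out and library series.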

Additional observations from a re-analysis of the deposited data

Results flagged for a closer look

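At Snai1 the H3K4me2 difference between genotypes had opposite signs at the 2 stages. KO minus wild-type mean coverage within 2500 bp of the gene ends was -5.03 kb in ES cells and 6.24 kb in EB, and in each stage every KO library stood on the same side of both wild-type libraries. The difference between stages was not tested, because the gene was chosen with these values known. Of all genes, 1.22% were wild-type-only in ES cells and 2.05% KO-only in EB, and the share with both calls is not given here. The ES call was lost with the higher-scoring 50% of each list. The EB call was lost with that setting and with equal list lengths. The EB peaks were near the lowest score of their lists.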

How the results depend on the processing

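Each count of members was recomputed with other windows, stricter lists and libraries left out, and the cause of each shift was not tested beyond what the setting itself removes. H3K4me2 KO-only in ES cells stayed at 0 in all of them. Among 10 kb windows, the transcription start window (6 members examined, without Mixl1, Foxc2 and Cdx1) and the higher-scoring 50% of each list, H3K4me2 wild-type-only in EB was 0 in all 3. Cdx1, the 1 such gene within 2500 bp of a gene end, could not be called at the transcription start. H3K4me2 KO-only in EB was 0 with the higher-scoring 50% and with equal list lengths. H3K4me1 wild-type-only in ES cells was 0 within 10 kb and 2 with equal list lengths, and in EB it was 1, Eomes, with the higher-scoring 50%. In wild type, equal list lengths gave 1 H3K4me2 ES-only gene, Gsc, and 1 EB-only gene, Cdx1. H3K4me1 ES-only was 2 within 1000 bp and 0 within 10 kb. It was also 0 at the transcription start, where Foxc2, the 1 such gene within 2500 bp of a gene end, was not examined. H3K4me1 EB-only was 0 within 10 kb and with the higher-scoring 50%.

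With 1 library left out, H3K4me2 ES wild-type-only was 3 to 6 and KO-only 0 to 0, EB wild-type-only 1 to 2 and EB KO-only 1 to 2. The upper values came without ES wild-type replicate 2 and without EB KO replicate 1, which added Mesp1 to the wild-type-only and Tbx6 to the KO-only genes. H3K4me1 ES wild-type-only was 1 to 3, highest without wild-type replicate 2 and 2 without wild-type replicate 1 or KO replicate 1, and ES KO-only was 0 to 1, with Snai1 added without KO replicate 2. H3K4me1 EB wild-type-only was 0 to 3, highest without wild-type replicate 1 and 1 without either KO library, and EB KO-only was 0 to 1, with Cdx1 added without KO replicate 2. In wild type, H3K4me2 ES-only was 2 to 4 and EB-only 0 to 1, the last without ES replicate 1. H3K4me1 ES-only was 1 to 2, with 2 without EB replicate 2 or either ES library, and EB-only was 1 to 2, with Mixl1 added without EB replicate 1. Leaving out the libraries of another library series added Eomes to the H3K4me2 ES-only genes of wild type, 3 in place of 2, and left the other H3K4me2 counts as they were. The absence of PRDM16 peaks at members within 1000 bp and over the span follows from their absence over or within 10 kb. These windows, chosen after seeing the data, therefore add no check. No paired analysis was possible because the calls come from no test and no fitted model that holds a replicate term.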
